A study of Homo sapiens with 12 samples.

Results

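The TaqMan miRNA array cards used in this study carried 4 assays, miR-720, miR-1260, miR-1274A and miR-1274B, whose targets entered the miRNA catalogue as miRNAs and were later traced to fragments of transfer RNAs (tRNAs). They were found by the number in the assay name among the 501 assays with a normalised value, and all 4 lie on card B, which holds 211 of those assays. Each was measured in all 12 samples. The samples are 2 human embryonal carcinoma cell lines, 2102Ep and NTera-2, stem-cell-like lines derived from germ cell tumours. Each line was transfected with an siRNA against the pluripotency transcription factor SOX2 (siSOX2) or with a non-targeting Silencer Select siRNA (NC), with 3 biological replicates in each of the 4 groups. Transfection lasted 6 h and RNA was taken after a further 72 h. The 2102Ep cells received 15 nM siRNA with Lipofectamine 2000 and the NTera-2 cells 30 nM with Lipofectamine RNAiMAX, so cell line, dose and reagent cannot be told apart in any comparison between the lines. The SOX2 transcript itself is not among the measurements used here, so the extent of the knock-down is not shown.

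Transfer RNAs carry amino acids to the ribosome, are transcribed by RNA polymerase III and receive the letters CCA at the 3′ end after transcription. Nucleases cut them into fragments of about the length of a miRNA, and a fragment from the 3′ end keeps the CCA. Early small-RNA sequencing recorded several such fragments as miRNAs. The miR-1260 sequence corresponds to the 3′ end of leucine tRNA, miR-1274A and miR-1274B to the 3′ ends of lysine tRNAs, and miR-720 to threonine tRNA. In the RefSeq gene table (GRCh38.p14), 32 of 443 nuclear tRNA genes are leucine, 27 lysine and 20 threonine genes, so no value below belongs to a single locus. A stem-loop qPCR assay reads RNA with a matching 3′ end, and whether mature tRNA, a fragment or another RNA gave each signal was not tested.

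RefSeq held a mature sequence for 1 of the 4 assays. The older name hsa-miR-1260 is a synonym of MIR1260A there, at chr14:77266231-77266248 on the plus strand (GRCh38.p14), inside the span of the neuroglobin gene NGB, 14:77265483-77271206. MIR1260B, at chr11:96341447-96341465 on the plus strand, lies inside the span of MAML2. The 2 sequences are shown because the letters at the 3′ end are those of a mature tRNA in one and not in the other. Capitals mark the seed, bases 2 to 8 from the 5′ end, which is the stretch a miRNA pairs through.
hsa-miR-1260a: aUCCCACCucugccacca
hsa-miR-1260b: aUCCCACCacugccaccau
The 18 bases they share differ at 1 position, U9A, counted from the 5′ end with the miR-1260a base first, and miR-1260b is 1 base longer at the 3′ end. The miR-1260a sequence ends in CCA, as do 45 of the 2370 mature sequences in the table (1.9%), while miR-1260b does not. These 2 are the only mature sequences there with the seed UCCCACC. The nearest annotated tRNA gene to MIR1260A, TRC-GCA8-1, is 4.3 Mb away on chromosome 14. For miR-720, miR-1274A and miR-1274B no sequence is printed.

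The unit of measurement is the raw threshold cycle (Ct), the PCR cycle at which the signal crosses a threshold, so that a lower Ct is more RNA and 1 cycle is about 1 log2 step. The deposited dCt is the raw Ct minus a constant for that sample and card. In total 421 to 451 assays had a value in each sample. All 8 pluripotency miRNAs listed for these cells (miR-302a to miR-302d, miR-367 and miR-371-3p to miR-373) were measured in all 12 samples, with group means from Ct 13.9 to 26.1. Of 9 markers of other tissues, 5 were in the table, with group means from Ct 21.1 to 29.8, and miR-122, miR-1, miR-451 and miR-144 were not. In 2102Ep siSOX2 replicate 3 the raw Ct column is displaced by 1 measured row over its later part. Raw Ct of the assays with a dCt was therefore taken there as dCt plus the constant, which changes miR-720 in that sample from 24.6 as placed to 18.7 and leaves its dCt untouched.

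The 4 assays gave strong signals in both lines. On card B, where 167 to 195 assays were measured per sample, miR-1274B ranked between 4 and 10 by lowest Ct over the 12 samples and miR-1274A between 5 and 17. The ranks were 6 to 18 for miR-720 and 10 to 33 for miR-1260. Assays amplify with their own efficiency, so this order of Ct is not an order of copy number.

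The lysine tRNA assay miR-1274B had raw Ct of 18.13, 18.27 and 18.08 in the 2102Ep NC samples and 17.90, 18.05 and 17.95 in 2102Ep siSOX2. In NTera-2 it had 15.71, 14.96 and 15.35 in NC and 14.80, 14.94 and 15.08 in siSOX2. Every NTera-2 sample was thus more than 2 cycles below every 2102Ep sample. The mean dCt was −6.39 ± 0.190 (SD, n = 3) in 2102Ep NC and −6.75 ± 0.328 in siSOX2, and −1.34 ± 0.127 and −1.54 ± 0.193 in the NTera-2 groups.

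The second lysine tRNA assay, miR-1274A, had raw Ct of 18.93, 19.02 and 18.86 in 2102Ep NC and 18.76, 18.82 and 18.69 in 2102Ep siSOX2. Its raw Ct in NTera-2 was 16.53, 15.96 and 16.19 in NC and 15.70, 15.90 and 16.03 in siSOX2. Its samples fell in the same order of lines as those of miR-1274B. The mean dCt was −5.61 ± 0.175 and −5.96 ± 0.266 in 2102Ep NC and siSOX2, and −0.45 ± 0.121 and −0.60 ± 0.187 in NTera-2 NC and siSOX2 (SD, n = 3 each).

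For miR-720, the threonine tRNA assay, raw Ct was 19.29, 19.01 and 19.07 in 2102Ep NC and 18.97, 18.94 and 18.72 in 2102Ep siSOX2. In NTera-2 NC it was 17.50, 15.95 and 16.94, the widest spread of any group of the 4 assays, against 16.46, 16.51 and 16.46 in NTera-2 siSOX2. NC replicate 2 of NTera-2 was the lowest of its group for all 4 assays, and the small nucleolar RNA RNU44, a control, was also lowest there at Ct 13.99 against 15.92 and 15.69. The part of that sample in the group mean was not separated from other spread. The mean dCt of miR-720 was −5.42 ± 0.179 and −5.84 ± 0.179 in 2102Ep NC and siSOX2. In the NTera-2 groups it was 0.12 ± 0.506 and −0.0037 ± 0.157 (SD, n = 3 each).

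For miR-1260, the leucine tRNA assay, raw Ct was 20.92, 20.52 and 20.60 in 2102Ep NC and 20.29, 20.34 and 20.19 in 2102Ep siSOX2. In NTera-2 it was 19.81, 18.67 and 18.89 in NC and 18.52, 18.97 and 18.63 in siSOX2. It had the highest Ct of the 4 assays in every sample. The mean dCt was −3.87 ± 0.194 and −4.44 ± 0.249 in 2102Ep NC and siSOX2, and 2.44 ± 0.414 and 2.23 ± 0.0534 in the NTera-2 groups (SD, n = 3 each). The plot of raw Ct by sample shows the 4 assays side by side.

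**Figure D1:**
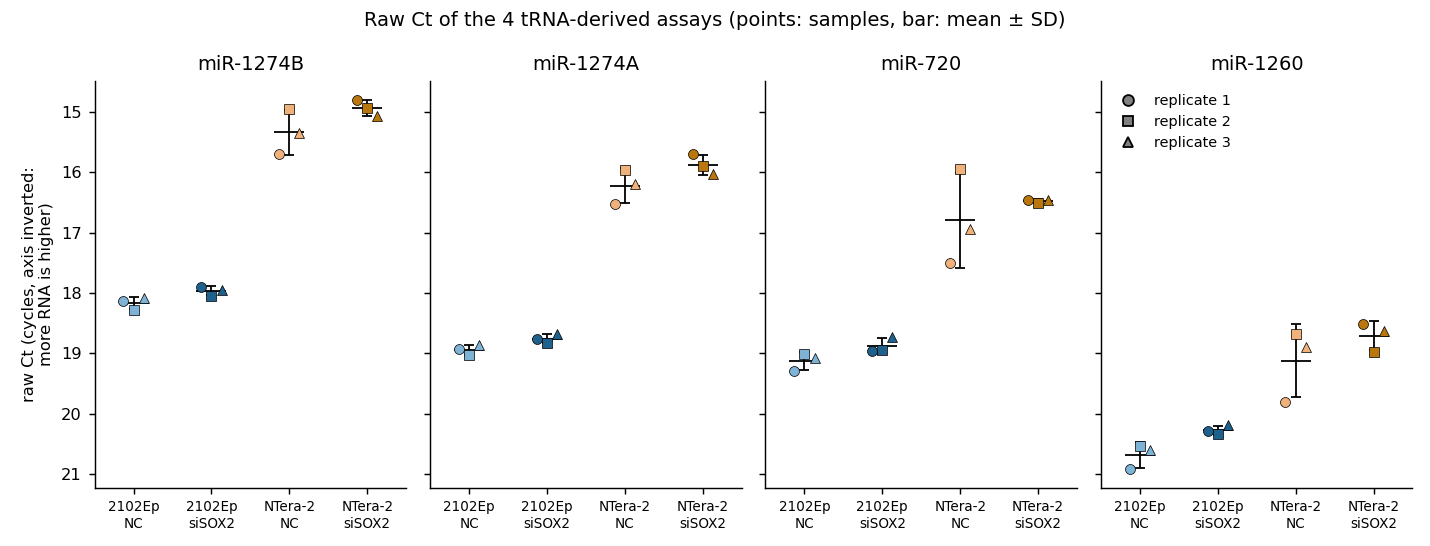
Raw Ct in cycles on an inverted axis, so that more RNA is higher, for each tRNA-derived assay in the 4 groups; points are samples, with a marker for each replicate, and bars are the mean ± SD (n = 3). All 6 NTera-2 samples lie above all 6 2102Ep samples for each assay, while the NC and siSOX2 groups of a line lie close together, with miR-720 in NTera-2 NC spread from 15.95 to 17.50.

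The first comparison asks whether these RNAs changed when SOX2 was depleted in 2102Ep cells. On the dCt scale all 4 lay higher in siSOX2 than in NC, as did 49.8% of all assays, and none passed the test. The log2 difference (siSOX2 minus NC, as −dCt) was 0.58 for miR-1260 (SE 0.24, adjusted p = 0.165, limma with Benjamini-Hochberg adjustment over 432 assays). It was 0.35 for miR-1274A (adjusted p = 0.341), 0.36 for miR-1274B (adjusted p = 0.36) and 0.42 for miR-720 (adjusted p = 0.381). As a ratio, the miR-1260 estimate is 1.49 with a 95% interval from 1.03 to 2.16, and the other 3 intervals include 1. Thus 0 of 4 were called, where 14.1% of the 432 assays were. Before adjustment, the limma p of miR-1260 was 0.0377, so that 1 of 4 was under 0.05, against 25% of the whole table. The unequal-variance test of each assay alone called none of the 4, but it called only 8 of the 432 assays.

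In single samples, the dCt of miR-1260 was −3.81, −4.08 and −3.71 in 2102Ep NC and −4.72, −4.39 and −4.23 in siSOX2, and that of miR-720 was −5.44, −5.59 and −5.24 in NC and −6.04, −5.79 and −5.69 in siSOX2. The NC and siSOX2 values of 2102Ep did not overlap on the dCt scale for miR-1260 and miR-720, both higher in siSOX2, which 13.9% of all assays also showed in that direction. For miR-1274A and miR-1274B they overlapped. On raw Ct, all 4 assays were lower in every siSOX2 sample than in any NC sample, and 12% of the assays were. The median difference of the 4 was 0.39, against −0.0026 over all 432 assays and 0.04 over the 168 tested on card B. From the highest difference down, miR-1260 ranked 84 of 432 and miR-1274A, the lowest of the 4, ranked 128.

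The reference sets whether these differences pass. With the mean of the small nucleolar RNAs RNU44 and RNU48 as reference, 3 of 4 were called in 2102Ep. The raw Ct table lists each of these controls in more than 1 row without a card, and the rows were assigned to card B by their order. In NTera-2 the RNU48 row so assigned, averaged with miR-16-1* and an unnamed control row, equals the card B constant, while nothing in the values places RNU44. The called assays were miR-1260 at 1.13 (adjusted p = 0.0257), miR-720 at 0.97 (adjusted p = 0.0187) and miR-1274B at 0.92 (adjusted p = 0.0412), and on that scale 7.87% of all assays were called higher. The same reference moved the median of all assays to 0.43, and relative to that median the 4 assays lay 0.47 to 0.70 higher. With RNU48 alone all 4 were called, from 0.88 to 1.10, where 69 of all 432 assays were called in either direction. With the RNU44 and RNU48 rows assigned to card A none was, from 0.51 to 0.73 with adjusted p from 0.113 to 0.271 (limma). On those rows 54 of the 432 were called and the median of all assays was 0.54. Relative to that median, which pools both cards, the 4 assays lay from −0.03 to 0.19. Each card has its own reference value, so a change of control rows shifts the card B assays of a sample alike. The 4 thus keep their place relative to card B, whose median on the deposited dCt was 0.04. Their changed place relative to the pooled median reflects the offset between the cards. The calls in 2102Ep thus depend on the control rows used. The card A assignment moves both controls, although the NTera-2 constant places the RNU48 row on card B. Only the place of RNU44 is thus not settled, and a fit with the RNU44 row alone exchanged was not run. The control rows have no dCt. In 2102Ep siSOX2 replicate 3 they were therefore moved by 1 measured row, to Ct 17.90 for RNU44 and 18.52 for RNU48, and no constant checks these 2 values. RNU44 had a raw Ct of 16.9 ± 0.0847 in 2102Ep NC and 17.7 ± 0.265 in siSOX2. RNU48 had 18.1 ± 0.0642 and 18.8 ± 0.231 (SD, n = 3 each). Both references were therefore at a higher Ct after siSOX2, in groups that did not overlap, while the tRNA-derived assays were at a lower one.

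**Figure D2:**
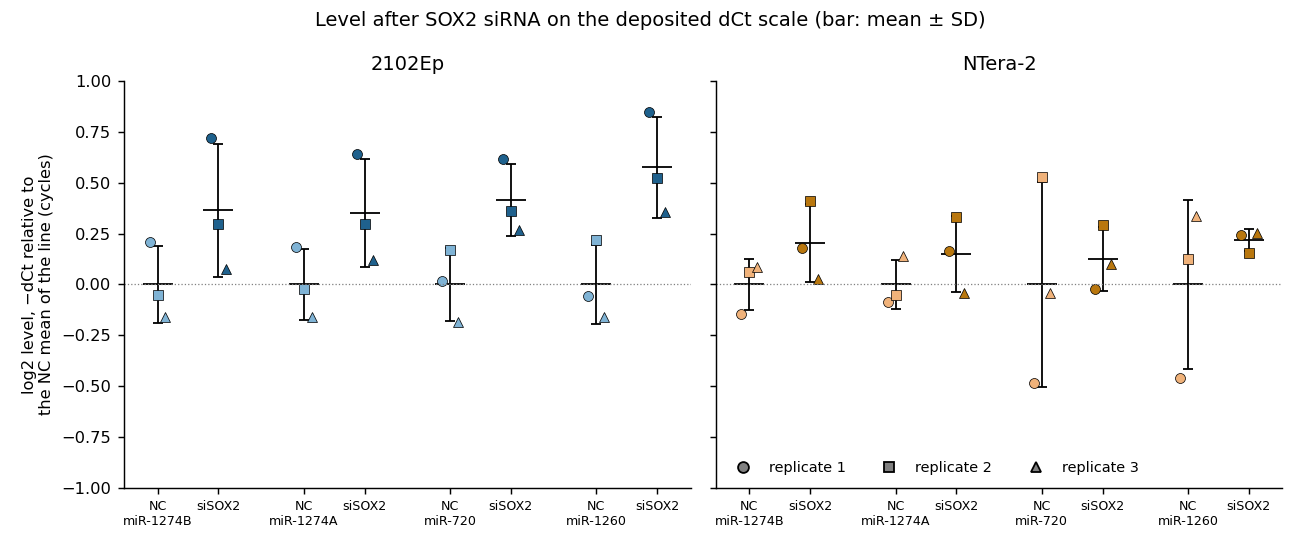
Level of each assay as −dCt (log2 units, cycles) relative to the NC mean of the same line, in 2102Ep and NTera-2; points are samples, with a marker for each replicate, and bars are the mean ± SD (n = 3). In 2102Ep the siSOX2 means lie 0.35 to 0.58 above NC and in NTera-2 0.12 to 0.22 above, with no overlap between groups only for miR-1260 and miR-720 in 2102Ep.

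In NTera-2 cells the same question was asked on a dCt whose constant is built from other RNAs. On card B of NTera-2 that constant is the mean of miR-16-1*, RNU48 and the unnamed row, while in 2102Ep its RNAs are not identified here and it differs from the median of the card by −0.1465 to −0.0504 cycles, so the sizes of the dCt differences cannot be set side by side between the lines. The log2 difference was 0.22 for miR-1260, 0.15 for miR-1274A, 0.20 for miR-1274B and 0.12 for miR-720, with standard errors from 0.20 to 0.26 and adjusted p from 0.68 to 0.854 (limma, over 451 assays). None of the 4 was called, where 5.54% of the table was. Before adjustment none was under 0.05 (21.7% of the table was), and the groups overlapped for all 4, while 29% of the table had groups apart. The 5.54% are 25 assays, and 7 with the replicate number as a block, a term under which the 4 remained uncalled. Without NC replicate 1, the difference turned to −0.01 for miR-1260 and −0.12 for miR-720, and without siSOX2 replicate 2 it was 0.06 for miR-1274A, 0.10 for miR-1274B and 0.04 for miR-720.

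Most assays lay lower after siSOX2 in NTera-2 on this scale, with a median of −0.27 over the 451, and 28.6% were above 0. All 4 tRNA-derived assays were among those above 0. They ranked from 71 (miR-1260) to 96 (miR-720) of 451 by difference, and lay 0.39 to 0.49 above the median of all assays. The 2 cards have their own constants, and over the 195 assays tested on card B the median was −0.40, with 42 above 0. With the card mean as reference, which brings the median of all assays to 0.06, the differences were 0.63 to 0.72, with adjusted p from 0.198 to 0.342, and those of 2102Ep on the same reference were 0.32 to 0.54. With RNU44 and RNU48 as reference the NTera-2 differences were 0.19 to 0.28.

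**Figure D3:**
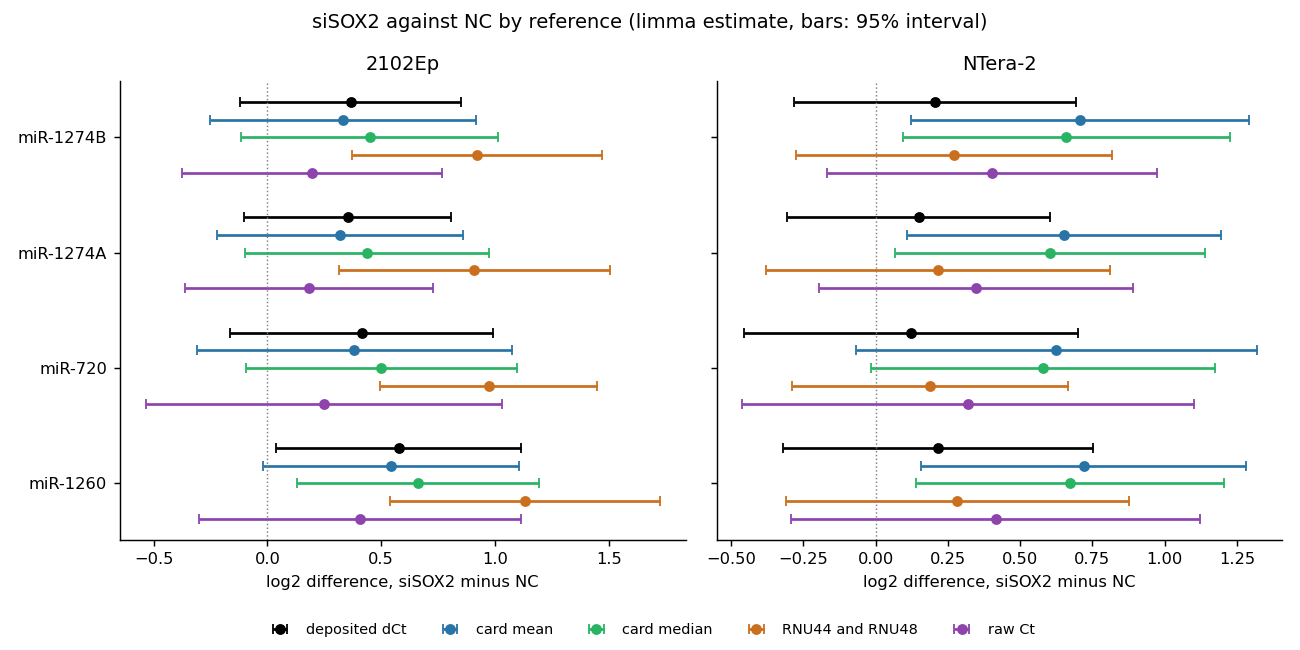
Log2 difference, siSOX2 minus NC, of each assay in 2102Ep and in NTera-2 with 5 references (deposited dCt, card mean, card median, RNU44 with RNU48, and raw Ct with none); points are limma estimates and bars 95% intervals that are not adjusted for multiple tests. All estimates are above 0 in both lines, and those on RNU44 and RNU48 in 2102Ep, from 0.91 to 1.13, lie farthest from it.

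Whether SOX2 depletion acted differently in the 2 lines was tested as an interaction. The siSOX2 effect in NTera-2 minus that in 2102Ep was −0.36 for miR-1260, −0.20 for miR-1274A, −0.16 for miR-1274B and −0.29 for miR-720, with adjusted p from 0.636 to 0.834 (limma, over 385 assays). None of the 4 was called, where 4.42% of the table was (17 assays, and 1 with the replicate block). Before adjustment none was under 0.05, where 22.1% of the table was. The median over all assays was −0.27, so the 4 lay from 0.08 below to 0.11 above it. Over the 152 assays tested on card B the median was −0.39, with 39 above 0, and all 4 lay above that median. Because the dCt of the lines subtracts different reference RNAs, the sign of the interaction also holds the difference between the references. It was negative with RNU44 and RNU48 in both lines, at −0.65 to −0.85, and positive with the card mean (0.18 to 0.38), the card median (0.01 to 0.21) and raw Ct (0.01 to 0.21), with no call on any of them. The widest 95% interval on the dCt scale, that of miR-720, ran from −1.11 to 0.52.

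Between the lines, the deposited dCt cannot be set side by side, because the constant subtracted on card B minus the card mean was 0.64 cycles in 2102Ep NC and −7.72 cycles in NTera-2 NC. Levels were therefore taken against the mean Ct of the card B assays measured in all 6 samples compared. On this scale all 4 tRNA-derived assays were higher in NTera-2 NC than in 2102Ep NC. The log2 difference was 3.28 for miR-1274B (SE 0.26, adjusted p = 0.000124), 3.17 for miR-1274A (SE 0.25, adjusted p = 0.00012), 2.78 for miR-720 (SE 0.37, adjusted p = 0.00074) and 2.02 for miR-1260 (SE 0.31, adjusted p = 0.00141), by limma over 386 assays. On raw Ct the groups of the lines did not overlap for any of the 4, which 37.3% of all assays showed in that direction. The differences are 9.71-fold, 8.99-fold, 6.89-fold and 4.05-fold. The lines differed for most assays: 71.8% were called and 38.9% were called higher in NTera-2, so 4 of 4 stands against that share. The median over all 386 was 0.17, relative to which the 4 lay 1.85 to 3.11 higher.

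After SOX2 siRNA the comparison between the lines had the same direction. The log2 difference, NTera-2 siSOX2 minus 2102Ep siSOX2, was 3.75 for miR-1274B, 3.60 for miR-1274A, 3.12 for miR-720 and 2.29 for miR-1260, with adjusted p from 9.57e-05 to 0.000198 (limma, over 385 assays). All 4 were called, where 74% of all assays were called and 41% were called higher, and raw Ct again did not overlap (37.7% of all assays in that direction). This set shares no samples with the NC comparison.

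The small nucleolar RNAs were also at a lower Ct in NTera-2. RNU44 was at 15.2 ± 1.05 in NTera-2 NC against 16.9 in 2102Ep NC, and RNU48 at 16.1 ± 0.460 against 18.1 (SD, n = 3). Against these 2 references, 1 of 4 assays was called between the NC groups, miR-1274B at 0.97 (adjusted p = 0.025), where 13% of all assays were called higher. On the same scale miR-1274A was at 0.86 (adjusted p = 0.0521), miR-720 at 0.47 (adjusted p = 0.131) and miR-1260 at −0.29 (adjusted p = 0.447). Between the siSOX2 groups the call that remained was in the other direction, miR-1260 lower in NTera-2 by this reference at −1.14 (adjusted p = 0.00324), where 71.2% of all assays were called lower. With that reference the median of all assays fell to −1.68 between the NC groups and to −2.50 between the siSOX2 groups. Relative to those medians the 4 lay 1.39 to 2.65 and 1.36 to 2.82 higher. With the control rows assigned to card A, miR-1274A and miR-1274B were called higher in NTera-2 between the NC groups, at 1.29 and 1.41, and between the siSOX2 groups, at 1.02 and 1.18. On those rows miR-1260 was called in neither, at 0.14 and −0.28. The median of all assays there was −1.77 and −2.69, and relative to it the 4 lay 1.91 to 3.18 and 2.41 to 3.87 higher. These medians pool both cards, while a change of control rows shifts the card B assays of a sample alike. The 4 thus keep their place relative to card B, and the ranges differ through the offset between the cards. With the card mean as reference the card B median was 0.18 between the NC groups and 0.04 between the siSOX2 groups. The share of all assays called on those rows is not given here. Raw Ct with no reference gave 1.56 to 2.82 between the NC groups, all 4 called, where 32.9% of all assays were called higher that way.

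**Figure D4:**
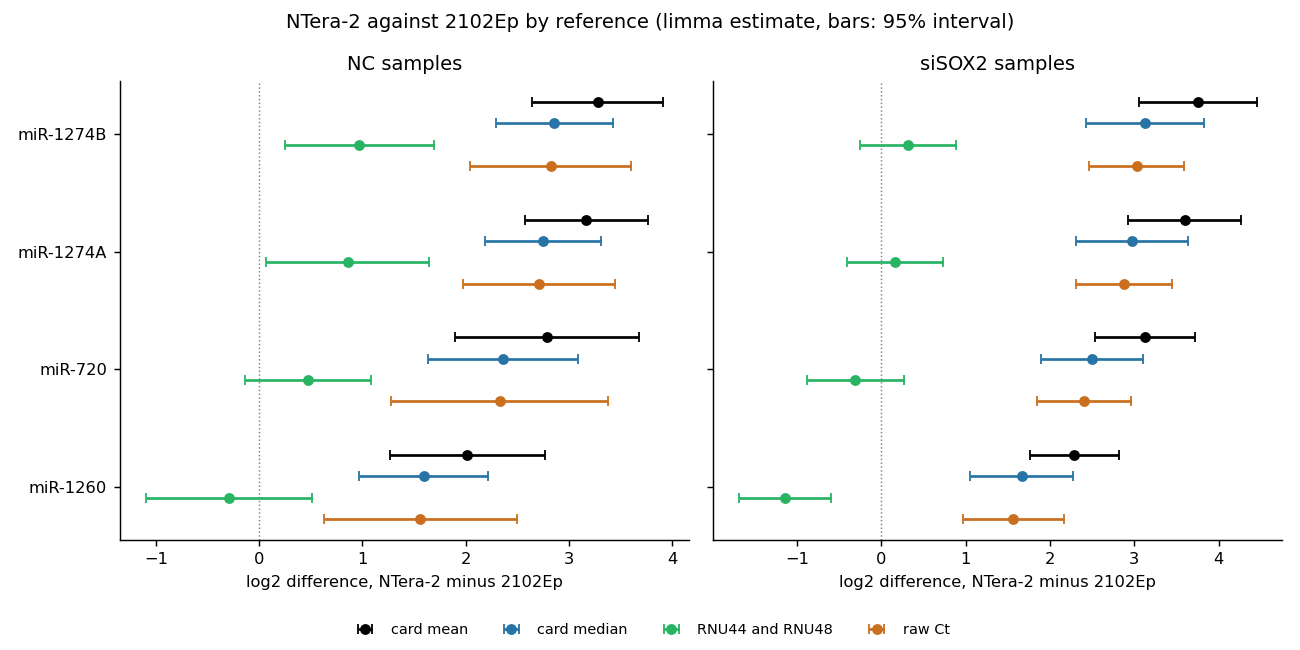
Log2 difference, NTera-2 minus 2102Ep, of each assay among the NC samples and among the siSOX2 samples with 4 references (card mean, card median, RNU44 with RNU48, and raw Ct with none); points are limma estimates and bars 95% intervals that are not adjusted for multiple tests. The card mean, card median and raw Ct place all 4 assays well above 0, while RNU44 with RNU48 place them between −0.29 and 0.97 for NC and between −1.14 and 0.32 for siSOX2.

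Differences between assays within a sample need no reference. The 2 lysine tRNA assays kept nearly the same spacing throughout: miR-1274A was 0.78 ± 0.0435 cycles above miR-1274B over the 6 samples of 2102Ep and 0.91 ± 0.0723 over the 6 of NTera-2, and the ranges overlapped. For miR-1260 the spacing from miR-1274B was 2.52 ± 0.267 in 2102Ep NC and 2.31 ± 0.0783 in siSOX2, and 3.78 ± 0.289 and 3.77 ± 0.244 in the NTera-2 groups (SD, n = 3 each). All 6 NTera-2 samples, from 3.53 to 4.10, lay above all 6 of 2102Ep, from 2.24 to 2.78. The spacing of miR-720 from miR-1274B was 0.96 ± 0.209 and 0.91 ± 0.150 in 2102Ep NC and siSOX2, and 1.46 ± 0.416 and 1.54 ± 0.143 in the NTera-2 groups, with overlap through NTera-2 NC replicate 2 at 0.99. The leucine tRNA assay thus stood farther from the lysine tRNA assays in NTera-2 than in 2102Ep, whichever siRNA was used. These spacings are given as a description, with no test. How many other pairs of assays separate the lines in this way was not counted, and 71.8% of single assays were called between the NC groups.

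**Figure D5:**
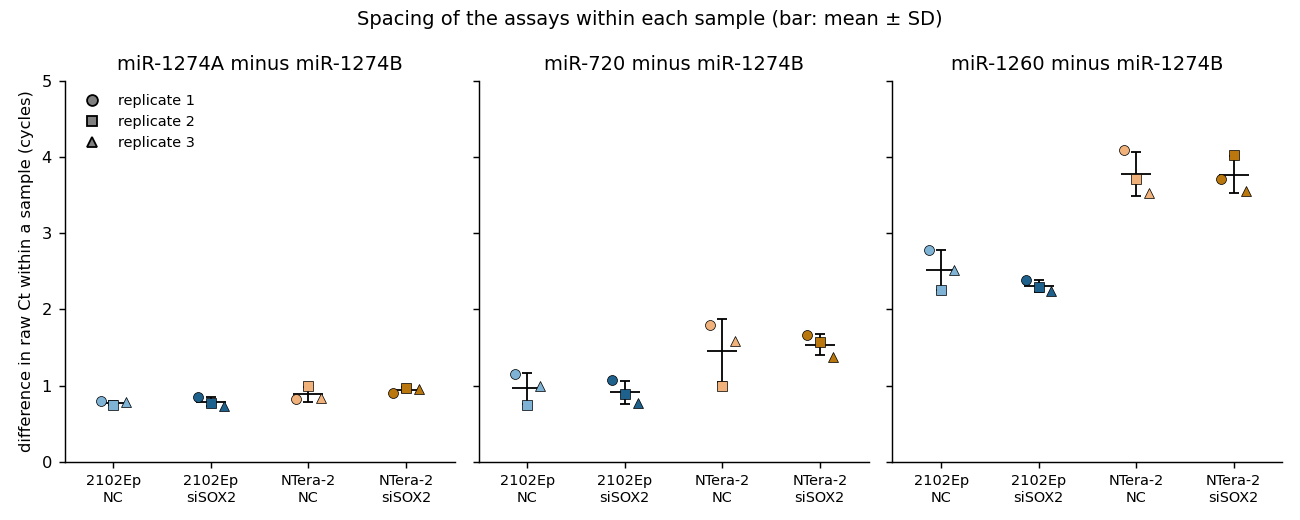
Difference in raw Ct between 2 assays in the same sample (cycles), by group; points are samples, with a marker for each replicate, and bars are the mean ± SD (n = 3). The spacing of miR-1274A from miR-1274B stays between 0.73 and 1.00 in all samples, while that of miR-1260 from miR-1274B is 2.24 to 2.78 in 2102Ep and 3.53 to 4.10 in NTera-2.

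Across the 12 samples, on the scale of the card mean, miR-1274A and miR-1274B had a Pearson r of 0.9996 (0.98 after taking out the group means). The other pairs among the 4 had r from 0.98 to 0.99, and 0.62 to 0.80 within groups. The 12 points form 2 clusters, the lines, and share their cards and pre-amplification, so r here mostly reads the difference between the lines and is a description. Of the 142 other card B assays measured in all 12 samples, the nearest to miR-1274A and to miR-1274B was miR-302a*, the minor strand of a pluripotency miRNA, with r of 0.99 and 0.99 (0.86 and 0.86 within groups). The nearest to miR-720 was miR-30e-3p (r 0.99, 0.82 within groups), and the nearest to miR-1260 was miR-1269 (r 0.98, 0.63 within groups).

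The replicates of the 4 assays were close in most groups. In 2102Ep NC their SD of dCt was 0.18 to 0.19, against a median of 0.37 over card B. In 2102Ep siSOX2 it was 0.18 to 0.33, against 0.44. In NTera-2 siSOX2 it was 0.05 to 0.19, against 0.38. In NTera-2 NC it was 0.12 and 0.13 for miR-1274A and miR-1274B but 0.41 for miR-1260 and 0.51 for miR-720, against a card median of 0.64. These medians cover card B assays at any Ct, and the 4 were not compared with assays of like Ct.

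Other assays that read fragments of structural RNAs gave a mixed pattern. Of 15 names searched, 4 were in the table: miR-1201, miR-1248, miR-1291 and miR-664, which overlap small nucleolar RNA genes. None was called after siSOX2 in either line, where the 2102Ep differences ran from −0.44 to 0.80 and the NTera-2 differences from −0.67 to −0.02. Between the NC groups miR-1201 was higher in NTera-2 by 1.15 (adjusted p = 0.0245), and miR-1248 and miR-1291 were lower, at −3.95 (adjusted p = 0.000875) and −1.01 (adjusted p = 0.044). The value for miR-664 was 0.86 (adjusted p = 0.384). Between the siSOX2 groups miR-1201 and miR-664 were called higher in NTera-2, at 1.95 (adjusted p = 0.003) and 0.91 (adjusted p = 0.042), and miR-1248 was called lower, at −4.79 (adjusted p = 0.00198), while miR-1291 was at −0.60 (adjusted p = 0.225, limma). Among the 36 other assays with numbers from miR-1178 to miR-1305, which include miR-1201, miR-1248 and miR-1291, 31 were tested between the NC groups. Of these 10 were called higher and 12 lower in NTera-2, with a median of −0.89, against a median of 2.98 over the 4 tRNA-derived assays.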

How the data were processed

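Mature miRNAs were measured by TaqMan array cards A and B in 12 samples after pooled reverse transcription and pre-amplification. The authors deposited raw Ct and dCt, both on a log2 scale of PCR cycles. Per the labels and the files, dCt is raw Ct minus a constant per sample and card. On card B of 2102Ep the RNAs behind that constant are not given in the sources used here. A further deposited table holds the authors' own fold changes and p-values and was not used. In 1 raw Ct column, 0.59% of 338 values from data row 106 on lay at the constant as placed (within 0.02 cycles) and 99.704% after a move of 1 measured row.

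Samples were grouped by their labels. Differences of −dCt were fitted with limma 3.58.1 in R 4.3.3 as 4 group means over all 501 assays, and p-values were adjusted by Benjamini-Hochberg over assays measured in at least 2 samples per arm. An adjusted p under 0.05 was called. Lines were compared on raw Ct minus the card mean, in the 6 NC and the 6 siSOX2 samples. The script was tested on simulated data. Intervals are at 95%. No counts exist for Ct data, so precision rests on 3 replicates. Same-numbered NC and siSOX2 samples of NTera-2 correlated weakly in their deviations (r = 0.1178, 0.2647 and 0.1595). These values do not settle whether equal numbers mark paired samples. The main fits do not pair them, and the replicate number as a block was run as an alternative.

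The 4 assays follow from the name rule. The lists beside them, the tests and the rule for named assays (the 4, the references, the structural RNA list, and per assay the most similar others on card B) were chosen with earlier results of these data known. Alternatives were other references, a Ct filter, Ct 40 for unmeasured values, other tests, a replicate block and leaving out each replicate. Raw Ct without a reference, RNU48 alone and the RNU44 and RNU48 rows assigned to card A were added after the data were seen.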

Additional observations from a re-analysis of the deposited data

How the results depend on the processing

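In 2102Ep, RNU44 with RNU48 as reference raised the count called from 0 to 3 of 4, at 1.1318 (miR-1260), 0.9206 (miR-1274B) and 0.971 (miR-720), and RNU48 alone, added after the data were seen, to 4 (1.1004, 0.8893 and 0.9397, with miR-1274A at 0.8766). Every other reference, filter or test run there left 0 of 4 called, as did each replicate left out, although without siSOX2 replicate 1 miR-1274B fell from 0.3649 to 0.1866 and miR-1274A from 0.3521 to 0.2077. In NTera-2 no alternative called any of the 4. Leaving out 1 replicate at a time gave −0.0143 to 0.385 for miR-1260 and −0.1183 to 0.3862 for miR-720, below 0 only without NC replicate 1, and 0.0591 to 0.2459 for miR-1274A and 0.103 to 0.2947 for miR-1274B, lowest without siSOX2 replicate 2. The interaction changed sign with the card mean (miR-1260 0.1766, miR-1274A 0.3325, miR-1274B 0.3755, miR-720 0.2434), with the card median (0.0115, 0.1674, 0.2104 and 0.0783) and on raw Ct (0.0071, 0.163, 0.206 and 0.0739), and for miR-1274B its range over left-out replicates was −0.3038 to 0.0183, above 0 without 2102Ep siSOX2 replicate 1. For miR-720 it was −0.5334 to −0.029, nearest 0 without NTera-2 NC replicate 2, for miR-1260 −0.5903 to −0.1909 and for miR-1274A −0.3198 to −0.0586, with no call. Between the NC groups, RNU44 with RNU48 left 1 of 4 called (miR-1260 −0.2939, miR-1274A 0.8585, miR-720 0.474), RNU48 alone 2 (miR-1260 −0.4366, miR-720 0.3313) and the control rows assigned to card A 2 (0.1418 and 0.9097). Between the siSOX2 groups RNU44 with RNU48 left 1 called (miR-1260 −1.1426, miR-1274A 0.1657, miR-1274B 0.3196, miR-720 −0.3079), RNU48 alone 1 (−1.2802, 0.028, 0.1819 and −0.4455) and the rows assigned to card A 2 (miR-1260 −0.2835, miR-720 0.5511). With RNU48 alone the median of all assays was −2.04 between the NC groups and −2.66 between the siSOX2 groups, and with the rows assigned to card A −1.77 and −2.69. The shares of all assays called with RNU48 alone or with those rows are not given here. The counts of the 4 called with them thus cannot be set against the whole table. The deposited dCt, whose constant differs between the lines by construction, turned all 4 to −6.3109 (miR-1260), −5.1585 (miR-1274A), −5.0476 (miR-1274B) and −5.5429 (miR-720) in NC and to −6.6698, −5.3615, −5.2077 and −5.8351 in siSOX2. Otherwise the causes were not tested.

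The replicate block kept all 4 uncalled in both lines (2102Ep miR-1260 0.5759, adjusted p = 0.201) and changed no call of theirs. In 2102Ep the same-numbered correlations were 0.1583, 0.1685 and 0.064, and pairing was not settled in either line. Calls over all assays moved by more than 1.5 times: in 2102Ep from 61 to 8 (unequal-variance test), 31 (raw Ct), 39 without NC replicate 1 and 37 without NC replicate 3. In NTera-2 they moved from 25 to 15 (card mean), 16 (card median), 13 (RNU44 with RNU48), 11 (their rows assigned to card A), 3 (unequal-variance test), 6 (raw Ct), 11 (6 samples of the line), 7 (block) and 10, 14 and 14 without NC replicate 3, siSOX2 replicate 1 and siSOX2 replicate 2. For the interaction they moved from 17 to 11 (card median), 34 (RNU44 with RNU48), 37 (their rows assigned to card A), 51 (RNU48 alone), 6 (unequal-variance test), 2 (raw Ct), 1 (block) and 4 to 26 over left-out replicates. U6 as reference was not run, since its named row is on card A. The number of replicates limits what differences could pass.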
